A study of Mus musculus with 2 samples.

Results

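The genes described here encode the G protein-coupled receptors for extracellular nucleotides (P2Y receptors) and for adenosine. They are P2ry1, P2ry2, P2ry6, P2ry10, P2ry12, P2ry13, P2ry14, Adora2a, Adora2b and Adora3, and all 10 were found by symbol among the 46095 genes of the count table. Their RNA was measured by sequencing in mouse acute myeloid leukaemia cells positive for Mac1, an integrin with Itgam as its gene, and for C-kit, the stem cell factor receptor, labelled as leukaemia-initiating cells. They came from bone marrow by sorting. The mice were of strain C57BL/6 and 8 weeks old by their labels. There were 2 libraries, 1 with the genotype label wild type (WT) and 1 with the genotype label P2x1-KO, written P2X1-KO from here on. The treatment text also calls them P2X1-Scr and P2X1-KD, so that 2 sets of names exist for the same libraries. The sources used here do not say how the leukaemia was induced or how many animals gave each library. With 1 library per group there is no replicate check and no p-value, and every interval below covers counting error only.

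P2X1, the product of P2rx1, is an ion channel opened by ATP. The receptors described here answer to the same pool of extracellular nucleotides through G proteins. ATP released from cells is cut stepwise by ectoenzymes to ADP, AMP and adenosine, and each step hands the signal to another receptor. P2ry1, P2ry2 and P2ry6 encode Gq-coupled receptors that raise calcium through phospholipase C, for ADP, for ATP and UTP, and for UDP. P2ry12 and P2ry13 encode Gi-coupled receptors for ADP and P2ry14 a Gi-coupled receptor for UDP-sugars, all of which restrain adenylyl cyclase. Adora2a and Adora2b encode Gs-coupled adenosine receptors, which raise cyclic AMP, and Adora3 encodes a Gi-coupled one. P2ry10 carries a P2Y name and encodes a receptor activated by lysophosphatidylserine. Myeloid cells use this family in chemotaxis, phagocytosis and the restraint of inflammation.

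The WT-labelled library held 14658620 counts and the P2X1-KO-labelled library held 9447894. Levels are given as CPM, counts divided by the library size in megareads, with sizes set by TMM (trimmed mean of M values), and a fold is the ratio of CPM in the P2X1-KO-labelled library to that in the WT-labelled library. Exact 95% intervals follow in brackets. P2rx1 had 27 counts in the WT-labelled library and 45 in the P2X1-KO-labelled library, or 1.73 and 5.07 CPM, so the targeted gene was not lower in the P2X1-KO-labelled library. Every direction below is therefore a difference between libraries as labelled. The table has no values by exon, so whole and shortened transcripts cannot be told apart. The reason for the P2rx1 counts was not tested. The sort markers were present in both libraries, with Itgam at 307 and 504 CPM and Kit at 13.3 and 19.9 CPM.

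Counts of the 10 receptor genes together were higher in the P2X1-KO-labelled library, and the largest part of the difference was P2ry6. The sum was 242 counts, or 15.5 CPM (13.6 to 17.6), in the WT-labelled library and 576 counts, or 64.8 CPM (59.7 to 70.4), in the P2X1-KO-labelled library. This is a fold of 4.18 (3.59 to 4.88). The interval of the fold lay wholly above 1 for 6 genes (P2ry1, P2ry6, P2ry13, Adora2a, Adora2b and Adora3), wholly below 1 for 0, and included 1 for 4. Of the 20541 genes with at least 1 count, 26% had an interval wholly above 1 and 29.8% wholly below. In bulk RNA, fewer cells of a type and less RNA per cell cannot be told apart, in these genes as in the rest of the table.

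An average of 1 CPM or more was reached by 6 of the 10, namely P2ry1, P2ry2, P2ry6, Adora2a, Adora2b and Adora3. Of these, 5 were higher by 2-fold or more in the P2X1-KO-labelled library and 0 lower by 2-fold or more, while P2ry2 lay within 2-fold. The 13382 genes at that level held 15.5% that were higher to that extent (2074 genes) and 14% that were lower (1870 genes), and with total counts in place of TMM 1704 and 2463. The whole interval lay above 2-fold for 4 of the receptor genes, against 10.2% of all genes, and below it for 0, against 7.75%. The adenosine receptor genes were under 1 CPM in the WT-labelled library and reached the level only through the other library, so they had to differ in order to be counted, and the 5 of 6 is a description.

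**Figure D1:**
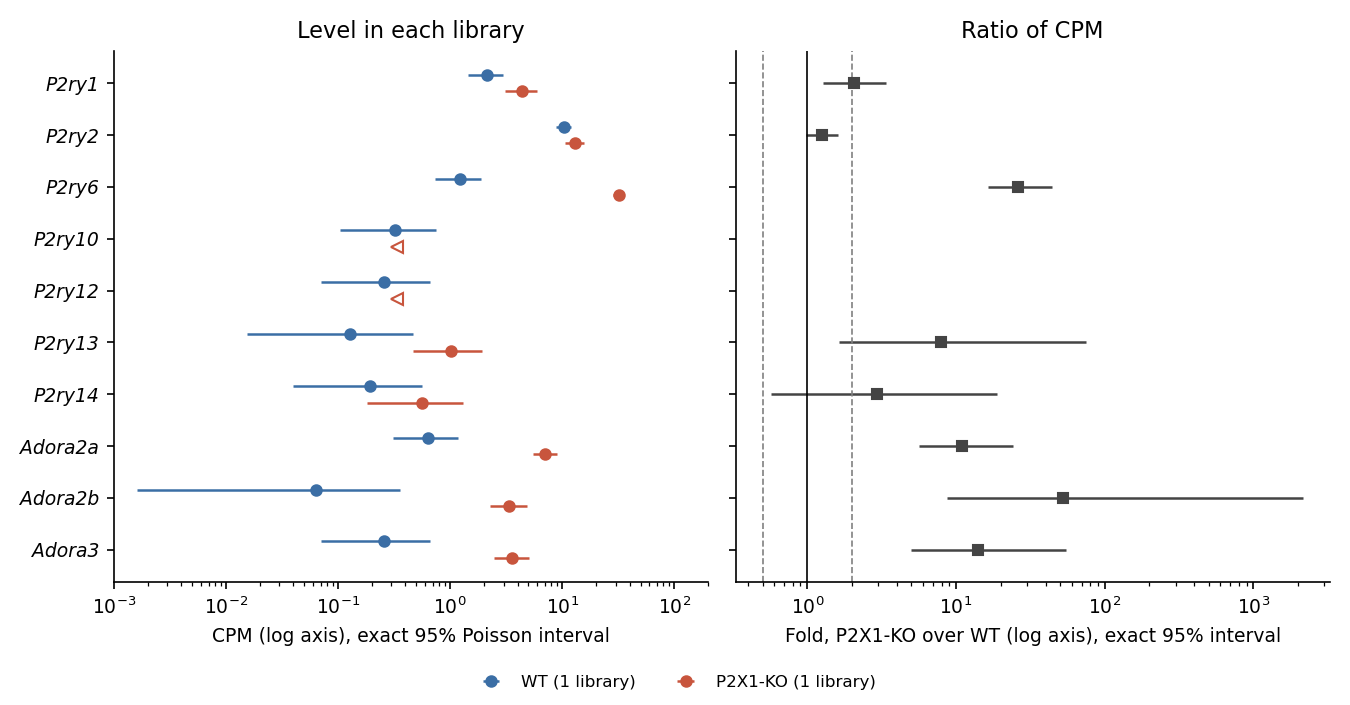
Left, CPM of each receptor gene on a log axis in the WT-labelled library (blue) and the P2X1-KO-labelled library (red), with exact 95% Poisson intervals. Open triangles mark a count of 0, drawn at the level of 3 counts. Right, the fold with its exact 95% interval on a log axis, with a solid line at no change and dashed lines at 2-fold in each direction, for the 8 genes with counts in both libraries. P2ry6, Adora2a, Adora2b and Adora3 have intervals wholly beyond 2-fold, and P2ry2 and P2ry14 have intervals that include 1.

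P2ry6, whose product is the UDP receptor known in macrophages for phagocytosis and cytokine release, had the highest count of the 10 in the P2X1-KO-labelled library. It had 19 counts (11.4 to 29.7), or 1.22 CPM, in the WT-labelled library and 283 counts (251 to 318), or 31.9 CPM, in the P2X1-KO-labelled library. The Poisson intervals are far apart, and the fold was 26.1 (16.4 to 44.1). Of all genes with an average of 1 CPM or more, 0.755% had a fold at least as high. P2ry6 spans chromosome 7, minus strand, from 100937630 to 100974649 (mm10, GENCODE M21), and no other annotated gene shares its exons.

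P2ry2, encoding the receptor for ATP and UTP, lies beside P2ry6 on chromosome 7, from 100996568 to 101012866 on the same strand. It had 161 counts (137 to 188), or 10.3 CPM, in the WT-labelled library and 115 (94.9 to 138), or 12.9 CPM, in the P2X1-KO-labelled library. The fold of 1.25 has an interval of 0.978 to 1.60 that includes no change, and scaling by the upper quartile raises it to 1.33 with a lower bound of 1.04. The neighbouring genes thus had unlike values: P2ry6 counts per P2ry2 count were 0.118 in the WT-labelled library and 2.46 in the P2X1-KO-labelled library. The ratio of these ratios, into which no scaling enters, was 20.9 (12.2 to 37.1).

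P2ry1, encoding the ADP receptor that starts platelet shape change, lay between these neighbours in fold. It had 33 counts (22.7 to 46.3), or 2.12 CPM, in the WT-labelled library and 39 (27.7 to 53.3), or 4.39 CPM, in the P2X1-KO-labelled library. The fold was 2.07 (1.27 to 3.40), just past 2-fold, and was 1.83 with total counts and 1.81 with totals that leave out the 20 most abundant genes. Against P2ry2 its ratio of ratios was 1.65, with an interval of 0.950 to 2.89 that includes 1. P2ry1 spans chromosome 3, plus strand, from 61002795 to 61008982. The antisense model Gm37035 shares 992 bases of its exons and had 0 counts in both libraries, and since the strand setting of the counting is not given, reads of the pair cannot be told apart.

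Adora2a, encoding the high-affinity Gs-coupled receptor through which adenosine dampens leukocytes, was higher in the P2X1-KO-labelled library. It had 10 counts (4.80 to 18.4), or 0.641 CPM, in the WT-labelled library and 63 (48.4 to 80.6), or 7.09 CPM, in the P2X1-KO-labelled library. Its fold was 11.1 (5.63 to 24.2). The gene spans chromosome 10, plus strand, from 75316877 to 75334784.

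Adora2b, encoding the low-affinity Gs-coupled receptor that responds when adenosine accumulates, was detected with 1 count (0.0253 to 5.57), or 0.0641 CPM, in the WT-labelled library and with 30 counts (20.2 to 42.8), or 3.38 CPM, in the other. The ratio was 52.7, but a single count sets it, and its interval runs from 8.75 to 2148. It spans chromosome 11, plus strand, from 62248984 to 62266453. Adora3, encoding the Gi-coupled receptor known from mast cell degranulation, had 4 counts (1.09 to 10.2), or 0.257 CPM, in the WT-labelled library and 32 (21.9 to 45.2), or 3.60 CPM, in the P2X1-KO-labelled library. Its fold was 14.04 (4.98 to 54.7). In GENCODE, Adora3 spans chromosome 3, plus strand, from 105870858 to 105908926. It shares 779 bases of exon with Tmigd3 on the same strand, which had 3 and 0 counts. Of the 50-base stretches of Adora3 transcripts, 19.8% also occur in other genes, Tmigd3 among them.

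The 3 adenosine receptor genes were all higher in the P2X1-KO-labelled library, by folds whose intervals overlap. Their summed counts were 15 in the WT-labelled library and 125 in the P2X1-KO-labelled library, a fold of 14.6 (8.54 to 26.9), against 3.49 (2.97 to 4.11) for the 7 P2Y genes, summed at 227 and 451 counts. Relative to P2ry2 within each library, the ratio of ratios was 8.82 (4.24 to 20.002) for Adora2a, 42.0 (6.72 to 1724) for Adora2b and 11.2 (3.80 to 44.5) for Adora3. Relative to P2ry6 it was 0.423 (0.177 to 1.07), 2.01 (0.298 to 86.4) and 0.537 (0.164 to 2.31), each interval including 1.

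The start regions of these genes are of unlike make-up. RefSeq (GRCm38.p6) gave a start for 8 of the 10 genes, and for P2ry6 and Adora2a no entry was matched. Shown are the 250 bases before the RefSeq start of Adora2b, Adora3 and P2ry2. The Adora2b window is chr11:62248734-62248983 (plus strand) and the Adora3 window is chr3:105904171-105904420 (plus strand). Both genes were over 10-fold higher in the P2X1-KO-labelled library. The P2ry2 window is chr7:101012054-101012303 (minus strand), before the upstream of its 2 RefSeq starts, and P2ry2 stayed within 2-fold. Capitals mark matches, on either strand, to any of 7 short motifs: GGGCGG (GC box), GAGGAA (ETS factors, PU.1 among them), TGANTCA (AP-1), TTGCNNAA (C/EBP), TGTGGT (RUNX), TGACG (a CRE core) and ACGTG (the core of the hypoxia response element).
Adora2b: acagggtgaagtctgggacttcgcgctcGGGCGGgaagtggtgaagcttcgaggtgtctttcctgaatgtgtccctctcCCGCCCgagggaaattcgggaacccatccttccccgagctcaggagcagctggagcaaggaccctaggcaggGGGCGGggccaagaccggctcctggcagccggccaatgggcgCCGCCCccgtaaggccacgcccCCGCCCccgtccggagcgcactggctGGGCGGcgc
Adora3: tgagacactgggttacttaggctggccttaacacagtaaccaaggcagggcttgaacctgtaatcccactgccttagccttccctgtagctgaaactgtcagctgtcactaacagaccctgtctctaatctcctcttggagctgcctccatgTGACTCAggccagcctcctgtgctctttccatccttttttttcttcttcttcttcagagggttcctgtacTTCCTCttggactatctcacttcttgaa
P2ry2: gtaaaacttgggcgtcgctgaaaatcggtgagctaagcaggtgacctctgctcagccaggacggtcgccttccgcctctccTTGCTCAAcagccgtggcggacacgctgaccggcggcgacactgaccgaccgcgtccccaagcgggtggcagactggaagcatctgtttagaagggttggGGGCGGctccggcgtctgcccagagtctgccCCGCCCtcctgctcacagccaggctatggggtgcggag
The Adora2b window held 6 GC boxes and none of the other 6 motifs, with a GC content of 69.6% and 22 CpG. The Adora3 window held 1 AP-1 and 1 ETS match, with 48.8% GC and 0 CpG. This window lies inside the GENCODE span of Adora3, which begins upstream at 105870858, so the 2 annotations differ on its start. In the P2ry2 window there were 2 GC boxes and 1 C/EBP match, with 65.2% GC and 21 CpG. It too lies inside the GENCODE span of its gene, which begins upstream at 101012866 on the minus strand. The window of the other RefSeq start of P2ry2, not shown, held 4 GC boxes, 1 C/EBP match and 2 overlapping ACGTG matches. Over all 32536 distinct windows of that length, the median was 52.4% GC and 6 CpG. Of all windows, 33.0% held a GC box, 23.4% the ETS letters, 6.73% the AP-1 letters and 9.57% the C/EBP letters. A match is a description of letters and says nothing on whether a factor was bound.

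The genes of the Gi-coupled P2Y receptors were close to the limit of detection. P2ry14, P2ry13 and P2ry12 follow each other on the minus strand of chromosome 3 between 59113855 and 59262871, inside the gene Med12l on the opposite strand. P2ry13, for an ADP receptor of myeloid cells, had 2 counts (0.242 to 7.22), or 0.128 CPM, in the WT-labelled library and 9 (4.12 to 17.1), or 1.01 CPM, in the P2X1-KO-labelled library, a ratio of 7.90 (1.63 to 75.1). P2ry14, for the UDP-glucose receptor, had 3 counts (0.619 to 8.77) and 5 counts (1.62 to 11.7), or 0.192 and 0.563 CPM. Its ratio of 2.93 (0.569 to 18.8) includes 1.

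P2ry12, for the ADP receptor that clopidogrel blocks on platelets, had 4 counts (1.09 to 10.2), or 0.257 CPM, in the WT-labelled library and 0 in the P2X1-KO-labelled library. A count of 0 there allows up to 3 counts, or 0.338 CPM, which is above the level in the WT-labelled library, so no difference was detectable at this depth. The same holds for P2ry10, on chromosome X from 107088492 to 107104974, with 5 counts (1.62 to 11.7), or 0.321 CPM, in the WT-labelled library and 0 in the other. Its paralog P2ry10b, listed in the table under the older symbol A630033H20Rik, had 7 and 5 counts, and of the 50-base stretches of P2ry10 transcripts 3.79% also occur in P2ry10b. Med12l itself, which encodes a Mediator subunit, had 39 and 5 counts and was 4.44-fold lower (1.75 to 14.4) in the P2X1-KO-labelled library. It shares 9 exonic bases with P2ry12 and 0 with P2ry13 and P2ry14. The neighbour Gpr171, for a further receptor of the same stretch, had 1 and 5 counts.

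Within the family, the leading gene differed between the libraries. P2ry2 took 66.5% (60.2 to 72.4) of the 242 receptor counts in the WT-labelled library and 19.97% (16.8 to 23.5) of the 576 in the P2X1-KO-labelled library. P2ry6 took 7.85% (4.79 to 11.99) and 49.1% (45.0 to 53.3). These shares need no scaling, and the binomial intervals of each gene do not overlap between the libraries. P2ry1 took 13.6% (9.58 to 18.6) and 6.77% (4.86 to 9.14), although its CPM was higher in the P2X1-KO-labelled library. The adenosine receptor genes together took 6.20% (3.51 to 10.02) in the WT-labelled library and 21.7% (18.4 to 25.3) in the P2X1-KO-labelled library. By coupling, Gq-coupled P2Y genes took 88.0% (83.2 to 91.8) and 75.9% (72.2 to 79.3). Gs-coupled adenosine receptor genes took 4.55% (2.29 to 7.99) and 16.1% (13.2 to 19.4). Gi-coupled P2Y genes took 3.72% (1.71 to 6.94) and 2.43% (1.34 to 4.04). The Gi-coupled adenosine receptor gene Adora3 took 1.65% (0.452 to 4.18) and 5.56% (3.83 to 7.75). In both Gi groups the intervals overlap between the libraries, and the shares went in opposite directions.

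**Figure D2:**
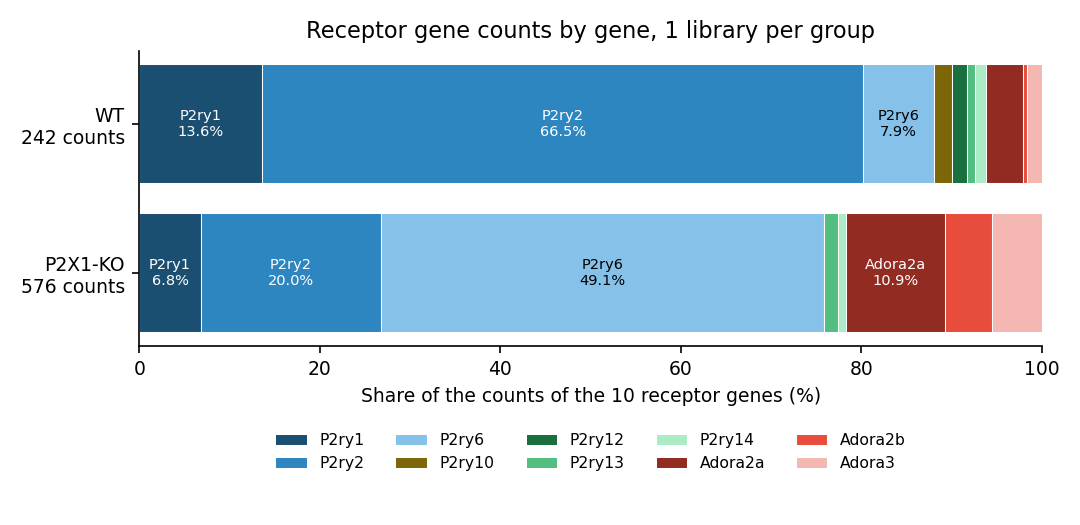
Share of the receptor gene counts taken by each gene, in percent, with 1 bar for each library (242 counts in the WT-labelled library and 576 in the P2X1-KO-labelled library). P2ry2 fills most of the upper bar at 66.5%, and P2ry6 the largest part of the lower bar at 49.1%.

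Levels of different genes were compared as CPM per kilobase of merged exon. In the WT-labelled library, P2ry2 led at 2.63 CPM per kb, 5.33 times (3.65 to 8.01) the level of P2ry1 at 0.493. From there down, P2ry6 at 0.422, Adora2a at 0.209, P2ry10 at 0.108, P2ry12 at 0.101, Adora3 at 0.0688, P2ry13 at 0.0507, Adora2b at 0.0348 and P2ry14 at 0.0174 followed, and no neighbours in that order differed beyond counting error. In the P2X1-KO-labelled library the order began with P2ry6 at 11.04 CPM per kb, 3.35 times (2.69 to 4.19) P2ry2 at 3.30. Adora2a at 2.32 and Adora2b at 1.83 came next and did not differ beyond counting error, and neither did P2ry1 at 1.02 and Adora3 at 0.966. P2ry13 stood at 0.401 and P2ry14 at 0.0509.

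The receptor genes were also ranked among G protein-coupled receptor genes whose symbols match a fixed pattern. That pattern does not cover every family of such receptors. Ranked per kilobase among receptor genes with a count, P2ry2 was number 26 of 123 in the WT-labelled library and 32 of 91 in the P2X1-KO-labelled library. P2ry6 was number 60 and number 15, Adora2a 71 and 37, and Adora2b 106 and 43. P2ry1 was number 55 and 56, Adora3 87 and 59, P2ry13 95 and 72, and P2ry14 114 and 85. P2ry10 and P2ry12, at 82 and 84 in the WT-labelled library, had no count in the other. As the rankings differ in length, a smaller number in the shorter one need not be a higher place. The other receptor genes in this ranking were taken by symbol pattern. Of 68 with an average of 1 CPM or more, 29 (42.6%) were higher by 2-fold or more and 8 (11.8%) lower, beside 15.5% and 14% of all genes, with a median log2 difference of 0.67, against -0.06 for all genes. That median is of log2(CPM + 0.5), a scale that understates differences of low genes.

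**Figure D3:**
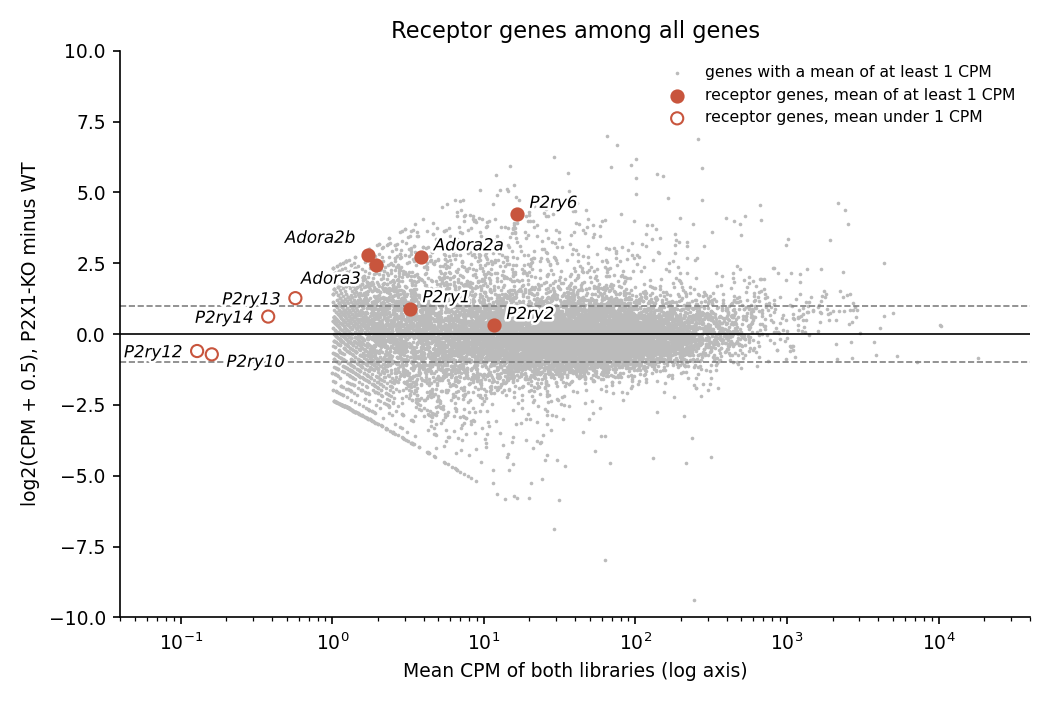
Difference of log2(CPM + 0.5), P2X1-KO-labelled library minus WT-labelled library, against the mean CPM of both libraries on a log axis. Grey points are the 13382 genes with an average of 1 CPM or more, filled red points are receptor genes at that level and open red points are those under it, with dashed lines at 2-fold. P2ry6 lies near the upper edge of the cloud, P2ry2 inside it, and P2ry10 and P2ry12, at 0 counts in 1 library, rest on the pseudocount.

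Closely related receptors outside the set gave 9 of 16 genes with a count, and 4 with an average of 1 CPM or more. Of these 4, 3 were higher by 2-fold or more in the P2X1-KO-labelled library (15.5% of all genes) and 1 lower by 2-fold or more (14% of all genes). Gpr65, for a proton-sensing receptor, had 1.22 and 15.6 CPM, a fold of 12.8 (7.92 to 22.0). Lpar6, for a lysophosphatidic acid receptor once named as a P2Y receptor, had 3.21 and 24.2 CPM, a fold of 7.55 (5.53 to 10.5). Cysltr1, for a leukotriene receptor, had 17 and 20 counts and a fold of 2.07 (1.03 to 4.20), which was 1.83 with total counts. Gpr183, for the oxysterol receptor EBI2, went the other way at 21.4 and 4.84 CPM, 4.41-fold lower (3.20 to 6.21). P2ry4, for a further UTP receptor, had 2 and 0 counts, and Adora1, for the remaining adenosine receptor, had 0 in both libraries. Of the P2X ion channel genes, 4 reached the level, 1 of them higher by 2-fold or more and 2 lower. The one higher was P2rx1 itself, with 27 and 45 counts and a fold of 2.93 (1.78 to 4.90). P2rx4 had 27.8 and 33.0 CPM, within 2-fold, and P2rx7, for the channel that opens at high ATP, was 2.33-fold lower (1.87 to 2.91). P2rx3, with 132 and 4 counts, was 18.8-fold lower (7.17 to 70.02). At 0.450 CPM in the P2X1-KO-labelled library, P2rx3 reached the level only through the WT-labelled library.

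The signalling genes downstream of these receptors are given by G protein class, beside 15.5% of all genes higher by 2-fold or more, 14% lower and 9438 of 13382 within 2-fold. On the Gq side (alpha subunits, phospholipase C beta and inositol trisphosphate receptors) 3 of 10 measured genes were higher by 2-fold or more, 1 was lower and 6 lay within 2-fold. Gna15, for the promiscuous alpha subunit of blood cells, had 21.04 and 51.2 CPM, a fold of 2.43 (2.11 to 2.81). Plcb3 had a fold of 2.15 (1.87 to 2.47), or 1.90 with total counts, and Plcb1, with 13 and 23 counts, 3.11 (1.51 to 6.67). At 0.834 CPM in the WT-labelled library, Plcb1 reached an average of 1 CPM only through the other library. Itpr3 was 2.31-fold lower (2.10 to 2.56). Plcb2, the most abundant phospholipase gene of the list, had 545 and 423 CPM. For the Gi class, Gnai2 had 886 and 1319 CPM and Gnai3 128 and 99.97 CPM, both within 2-fold.

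Of 14 measured genes on the Gs side, 2 were higher by 2-fold or more and 2 lower by 2-fold or more, counts near the shares of all genes. Adcy7, the leading adenylyl cyclase gene, had 255 and 388 CPM, within 2-fold. Adcy3 had 10.2 and 33.1 CPM, a fold of 3.25 (2.67 to 3.96), and Prkar1b, for a regulatory subunit of protein kinase A, had 1.09 and 5.52 CPM, a fold of 5.06 (2.86 to 9.37). Adcy9 was 3.05-fold lower (2.17 to 4.39). The other lower gene, Adcy6, had 2.44 and 0.901 CPM and reached the level only through the WT-labelled library. All 6 genes of the G12 and G13 branch lay within 2-fold, and Gna12, 1.80-fold lower, passed 2-fold lower with total counts.

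Phosphodiesterase genes, whose products end the cyclic nucleotide signal, were lower in the P2X1-KO-labelled library wherever they passed 2-fold. Of 9 measured, 3 were lower by 2-fold or more (14% of all genes) and 0 higher by 2-fold or more, with a median log2 difference of -0.62. Pde3b had 3897 counts, or 250 CPM, in the WT-labelled library and 103 counts, or 11.6 CPM, in the P2X1-KO-labelled library, 21.6-fold lower (17.7 to 26.5). Pde4a was 2.79-fold lower (2.52 to 3.09) and Pde8a 2.20-fold lower (1.89 to 2.56). Pde2a, for the enzyme stimulated by cyclic GMP, had 124 and 216 CPM.

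Of 14 measured receptor kinase, arrestin and RGS genes, whose products limit receptor signals, 10 lay within 2-fold. The other 4 were higher by 2-fold or more (15.5% of all genes) and 0 were lower (14% of all genes), with a median log2 difference of 0.53. Adrbk2, for a receptor kinase, was 1.75-fold lower and passed 2-fold lower when the 20 most abundant genes were left out of the totals. Rgs10, for an accelerator of Gi alpha GTP hydrolysis, had 8.85 and 71.9 CPM, a fold of 8.13 (6.75 to 9.84). Rgs1 had a fold of 5.66 (3.86 to 8.47) and the receptor kinase gene Grk5 of 4.04 (3.15 to 5.22). Of 10 measured beta and gamma subunit genes, 4 were higher by 2-fold or more (15.5% of all genes) and 1 lower by 2-fold or more (14% of all genes). With total counts 3 were higher to that extent, as the fold of Gng2 was 2.17 with TMM and 1.92 with total counts. Gngt2 had a fold of 10.5 (7.48 to 15.2), while Gng10 was 3.27-fold lower (2.90 to 3.69).

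For ligand supply and removal, 3 of 17 measured genes were higher by 2-fold or more (17.6%) and 2 lower (11.8%), near the 15.5% and 14% of all genes. Nt5e, for CD73, which makes adenosine from AMP, had 10 and 61 counts, a fold of 10.7 (5.44 to 23.4). At 0.641 CPM in the WT-labelled library, Nt5e reached the level only through the other library, so it had to differ to be counted. Slc28a2, for a sodium-driven nucleoside carrier, had 16.8 and 78.8 CPM, a fold of 4.69 (4.06 to 5.43). Ada, for adenosine deaminase, had 60.1 and 28.0 CPM and was 2.14-fold lower (1.86 to 2.48). Slc17a9, for the vesicular nucleotide carrier, was 2.24-fold lower (1.94 to 2.60). Entpd1, for CD39, which removes ATP and ADP, had 34.2 and 24.1 CPM.

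**Figure D4:**
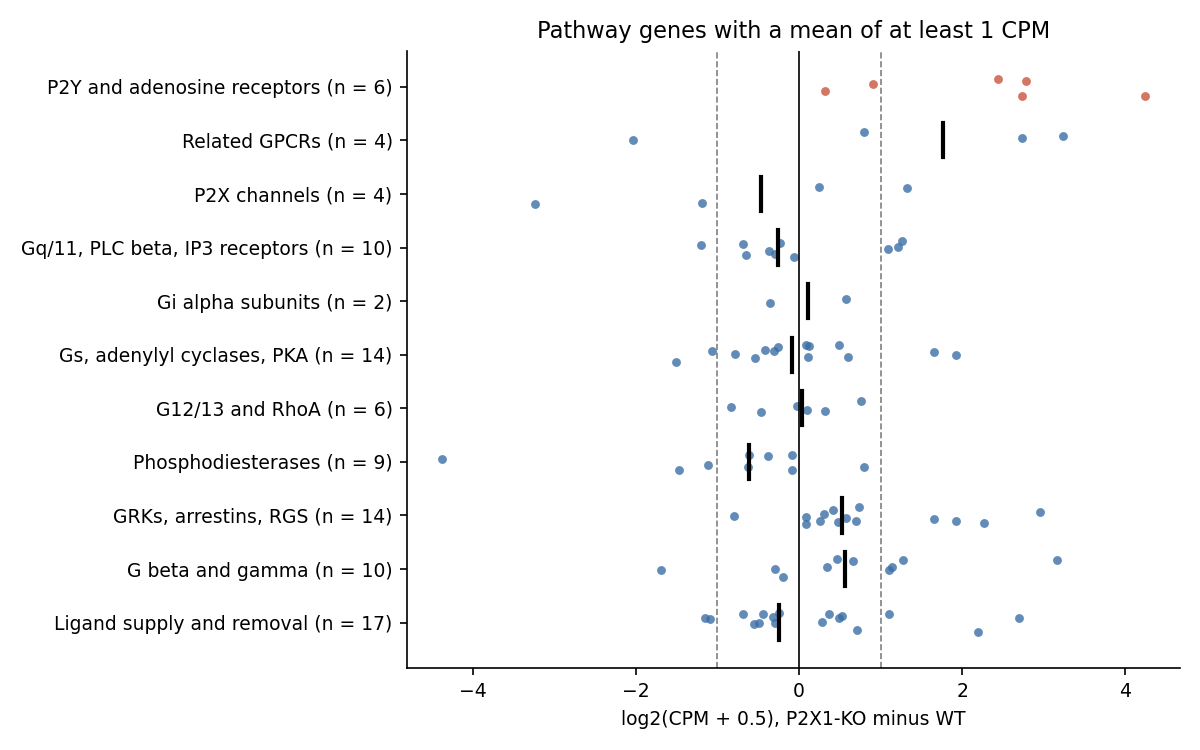
Difference of log2(CPM + 0.5), P2X1-KO-labelled library minus WT-labelled library, for each gene with an average of 1 CPM or more in the P2Y and adenosine receptor set (red) and in 10 lists of related genes (blue), with the number of such genes in brackets. Black bars are list medians, and dashed lines mark a difference of 1 in each direction. The 6 receptors reach from 0.31 to 4.23, of which Adora2a, Adora2b and Adora3 are shown only through their level in the P2X1-KO-labelled library. Pde3b is the lowest point.

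Marker lists of several cell types had higher summed levels in the P2X1-KO-labelled library, with single members at lower or equal levels. Of 12 macrophage markers 8 had an average of 1 CPM or more, and all 8 were higher by 2-fold or more, against 15.5% of all genes. C1qa, C1qb, C1qc and Siglec1 were under 1 CPM in the WT-labelled library and reached that average only through the other library, so these 4 had to be higher to be counted. Summed, the list stood at 97.0 and 681 CPM, 7.02 times higher, with Csf1r at 40.7 and 395 CPM and C1qb at 0.321 and 31.3 CPM. Vsig4 was at 0 in both libraries, Mrc1 had 3 and 0 counts, and Cd163 had 6 and 0. Of 9 eosinophil markers 4 were measured and 3 higher by 2-fold or more (19.4 and 232 CPM summed), with Ccr3, Il5ra and Ear1 at 0 in both. Of these 3, Prg2 and Ear2 passed the filter only through the P2X1-KO-labelled library, while Ear6 had 19 counts in the WT-labelled library and 0 in the other. Mast cell and basophil markers stood at 61.0 and 122 CPM summed, with 2 of 4 measured higher by 2-fold or more. Of these 2, Cpa3, at 1 and 166 counts, passed the filter only through the P2X1-KO-labelled library. Mcpt8 had 530 and 204 counts and Hdc 12.7 and 12.8 CPM, while Fcer1a, Cma1, Tpsb2, Tpsab1 and Mrgprb2 were at 0 in both.

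Monocyte markers summed to 909 and 3396 CPM and those of maturing neutrophils to 3598 and 14305 CPM. Of those measured, 7 of 9 and 10 of 12 were higher by 2-fold or more, against 15.5% of all genes. The neutrophil marker Ngp, at a fold of 2.15, was just past 2-fold. Fcgr1 of the monocyte list, with 5 and 14 counts, averaged under 1 CPM and is not among the 9. Ly6c2 had 546 and 497 CPM, and the neutrophil marker Ly6g had 109 and 36 counts. The list for stroma and endothelium summed to 14.4 and 246 CPM, with Pdgfra, Kdr and Tek at 0 in both. Its 4 measured genes were higher by 2-fold or more, but Col1a1, Col1a2 and Col3a1 passed the filter only through the P2X1-KO-labelled library, and Cxcl12 had 14 and 0 counts. Which cells these marker RNAs came from was not tested, nor was the part of such cells in the values of P2ry6, Adora2a, Adora2b, Adora3 and P2ry13. Platelet markers, which bear on P2ry1 and P2ry12, were at 4.81 and 8.44 CPM summed, with 0 of 2 measured 2-fold or more apart and Pf4, Ppbp, Gp1ba and Treml1 at 0 in both. T cell markers summed to 4.17 and 4.28 CPM with Cd3g, Cd4 and Cd8a at 0 in both, B cell markers to 16.9 and 49.8 CPM with Ms4a1, Pax5, Ebf1 and Blk at 0 in both, and erythroid markers to 0.962 and 2.14 CPM. NK cell markers held 1 count in all, and dendritic cell markers, led by Flt3, summed to 72.3 and 51.0 CPM.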

How the data were processed

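The file that the authors deposited holds raw read counts, as whole numbers, by symbol, in a column per library. HISAT2 2.0.4 and the build mm10 are named, per the submitters' processing notes. The sources used here name no counting program, annotation, strand setting or filter. The receptor genes, lists, motifs and marker genes were chosen with earlier results of these data known. Of the 46095 rows, 27 carried calendar dates in place of symbols and stayed in the totals.

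Counts were scaled by TMM in edgeR 4.0.16 (R 4.3.3) to effective sizes of 15591519 (WT) and 8882591 (P2X1-KO). Folds are ratios of CPM with exact (Clopper-Pearson) 95% intervals of the counts given their sum; counts have exact Poisson intervals, and ratios of ratios exact conditional intervals (SciPy 1.17.1). Reads sharing a PCR origin are not independent molecules, so intervals and floors cover counting error only. A count of 0 was set against 3 counts, or 0.192 CPM (WT) and 0.338 CPM (P2X1-KO). Calls used 2-fold at an average of 1 CPM or more; log2 differences used a pseudocount of 0.5 CPM. The folds and intervals were tested on simulated Poisson counts with known folds, which hold no variation between animals and no PCR duplicates. Positions and exon lengths came from GENCODE M21, on the same assembly, and were found for 86.5% of genes with a count. All 10 receptor genes are named. From each list, up to 3 genes in each direction were eligible, chosen by the interval bound nearest to no change. Other genes of the lists (Entpd1, P2ry4, Adora1, Adcy6 and the markers) were named after their values were seen. The count of intervals wholly above 1 was added after seeing the data. Other G protein-coupled receptor genes were taken by symbol pattern, leaving out the 10. Alternatives were other scalings (DESeq2 1.42.0 size factors among them), filters and pseudocounts.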

Additional observations from a re-analysis of the deposited data

How the results depend on the processing

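Under the 4 other scalings (total counts, DESeq2 size factors, upper quartile, and totals without the 20 most abundant genes) the fold of the summed receptor counts ranged from 3.64 to 4.43, that of P2ry6 from 22.8 to 27.7, Adora2a from 9.64 to 11.7, Adora2b from 45.9 to 55.8 and Adora3 from 12.2 to 14.9. With total counts, and with totals without the 20 most abundant genes, 4 receptor genes were higher by 2-fold or more in place of 5, since P2ry1 dropped below. The median log2 fold of all genes shifted by -0.18 and -0.20 under these scalings, and the share of higher calls was 52.6% with TMM, 40.9% with total counts, 39.9% without the 20 most abundant genes and 58.4% with the upper quartile. Of the 45 genes that the naming rule picks from the lists, not all of which the text describes, 0 changed direction and 6 crossed 2-fold under some scaling. The list medians of the Gi class and of the G12 and G13 branch changed sign with total counts.

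With an average of 5 CPM or more, 2 receptor genes were measured and 1, P2ry6, was higher by 2-fold or more. Among all genes of the table, 1271 were higher and 1110 lower of 10483 at that level, against 2074 and 1870 of 13382. Of all 20541 genes with at least 1 count, 3174 were higher by 2-fold or more and 2741 lower. Among the receptor genes 7 were higher and 0 lower. P2ry10 and P2ry12, at 0 counts in the P2X1-KO-labelled library, could not be called lower, since 3 counts there exceed their WT level. The 7 include P2ry13, at 2 and 9 counts, and P2ry14, at 3 and 5 counts with an interval that includes 1. Requiring the whole interval beyond 2-fold gave 1369 higher and 1037 lower genes and 4 receptor genes. A pseudocount of 1 CPM lowered the log2 differences of P2ry6, Adora2a, Adora2b and Adora3 to 3.89, 2.30, 2.04 and 1.87, as a larger pseudocount does by construction. No library could be left out, as each group has 1. No paired analysis was possible because each group has 1 library. Depth limits P2ry10, P2ry12 and P2ry14, for which no difference was detectable.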
